A study of Mus musculus with 24 samples.

Results

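The comparison described here is between sons of nicotine-treated and sons of saline-treated fathers in the ventral hippocampus, and it rests on 6 of the 24 poly(A) RNA libraries of the study, 3 for each paternal treatment. The mice were C57BL/6J offspring whose fathers had received nicotine or saline chronically, and the study asks how the father's nicotine bears on gene expression in the hippocampus of the offspring. The other 18 libraries come from the dorsal hippocampus of the same 6 sons and from both regions of 6 daughters. The sources used here give neither the offspring's age nor the doses nor the number of fathers. All 6 sons share the strain, and the sons of each group also share the number that opens their titles, so a single father, litter or cage per group cannot be told apart from the treatment. The letters A, B and C name the animals within a group.

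The ventral hippocampus is the part of the hippocampus most closely tied to anxiety, fear and stress regulation, and it receives cholinergic input acting on nicotinic receptors. Among the gene lists used here, which were chosen with earlier results of these data known, the 2 lists of molecular chaperones held the largest shares of genes that passed. Proteins of the secretory pathway fold in the endoplasmic reticulum (ER) with the help of BiP (Hspa5), calreticulin and disulfide isomerases, and unfolded protein there raises these transcripts through the transcription factors ATF6 and XBP1. In the cytosol, heat shock factor 1 does the same for the HSP70 and HSP90 machinery, which also holds the glucocorticoid receptor ready to bind hormone. Cirbp and Rbm3 code for RNA-binding proteins known to rise with mild cooling, when heat shock genes are low.

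The promoters of these genes show the letters through which such control is known to run, and a few are printed here, from chaperone genes whose calls held in each refit without 1 library. ATF6 binds the ER stress element, CCAAT and CCACG separated by 9 bases, on either strand, and each line gives this element in capitals with 5 bases on both sides, from RefSeq promoters of build GRCm38.p6.
Hspa5, chr2:34772020-34772048, plus strand: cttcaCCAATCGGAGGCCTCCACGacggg
Pdia6, chr12:17266486-17266514, plus strand: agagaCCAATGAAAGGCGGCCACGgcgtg
Dnajc3, chr14:118937822-118937850, plus strand: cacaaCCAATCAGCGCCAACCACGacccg
Creld2, chr15:88819515-88819543, plus strand: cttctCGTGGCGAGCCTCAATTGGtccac
Calr, chr8:84847070-84847098, minus strand: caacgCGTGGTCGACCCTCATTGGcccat
The heat shock element was searched as GAANNTTCNNGAA on both strands. Chordc1, a cochaperone of HSP90, holds 3 overlapping matches, in capitals.
Chordc1, chr9:18292258-18292290, plus strand: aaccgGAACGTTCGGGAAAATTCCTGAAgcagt

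Of 24 ER genes listed, 21 have a promoter of 300 bases in the RefSeq table, and the ER stress element stood in 9 of them. These were Hspa5, Hsp90b1, Pdia6, Calr, Creld2, Dnajc3, Derl3, Syvn1 and Canx. The element stood in 0.119% of all 32851 promoters of this length, and in a promoter of 0.162% of the 12312 genes tested that have one. The heat shock element stood in 0.603% of all promoters and in 0.56% of the genes tested that have one. On the list of cytosolic heat shock proteins it stood in 4 of the 17 genes with an entry. These were Chordc1, Hsph1 and the mitochondrial chaperonin pair Hspd1 and Hspe1, which lie back to back and share 1 promoter stretch. These are matches of letters and no measurement of binding. Both lists were made of known members of these responses, so a high share of matches describes the lists and is no result of these data.

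The 6 ventral libraries of sons held between 36663663 and 47486547 counts, within the range of the series (32049770 to 47486547). Levels of the Y-linked gene Ddx3y and of Xist matched the labelled sex in all 24 libraries. Of 15 markers of the ventral pole, 10 were higher in the ventral than in the dorsal libraries of the 6 sons and 0 lower, where 11.6% of all genes tested were higher. Ttr, the main transcript of the choroid plexus, was between 25.1 and 130.5 CPM (counts scaled to the total of a library) in the ventral sons, while nicotine-sired daughters B and C had 1787 and 1653 CPM. A further measure did move with the father's treatment. The ratio of counts in 625 antisense genes to counts in the 574 coding genes they lie opposite was 0.442%, 0.383% and 0.491% in the nicotine-sired and 0.209%, 0.247% and 0.206% in the saline-sired ventral sons. The groups did not overlap, and the comparisons of sons and of the sexes were therefore refitted with this ratio added.

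Of 19224 genes tested, 617 passed an adjusted p of 0.05 (3.21%), 349 of them higher in nicotine-sired sons (1.82%) and 268 lower (1.39%). A total of 3042 genes had an unadjusted p under 0.05. The median log2 fold change over all genes tested was 0.01. Every nicotine-sired son was above every saline-sired son in 2213 of the genes tested, and below in 2090. Genes that fell were mostly protein coding (242 of 268), with a median log2 fold change of -0.48. Among the genes that rose, 201 were protein coding, with a median of 0.59, and 148 were not. The noncoding genes that lie opposite coding exons (115 of the 349) had a median of 2.79 and are described after the coding genes. With 3 sons a group, leaving out single sons changed the number of genes passing: 309 passed without nicotine-sired son C, and 338, 381 and 284 without saline-sired sons A, B and C.

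**Figure D1:**
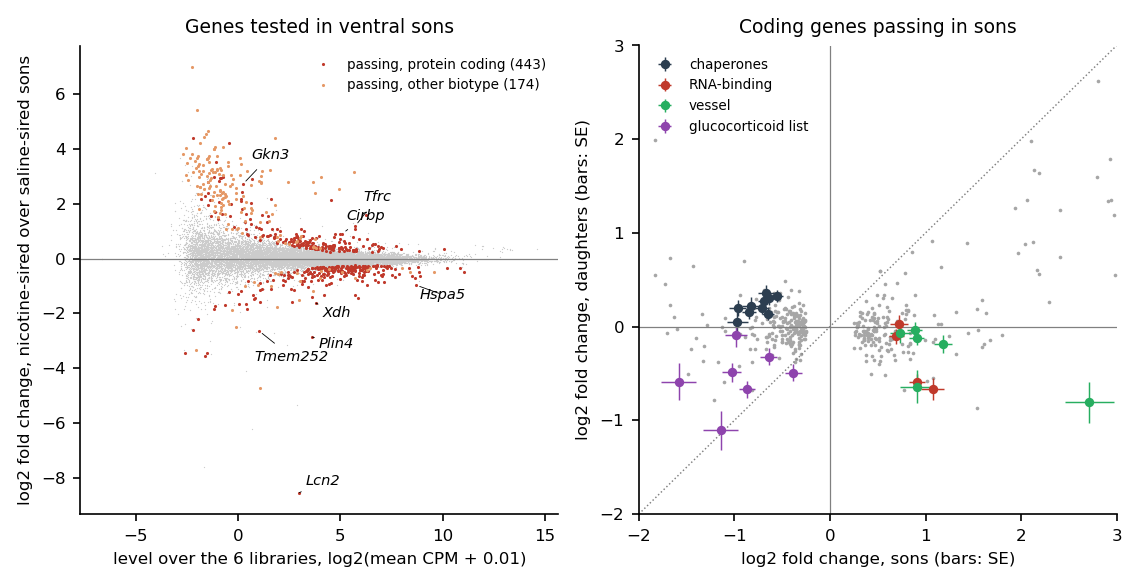
Left, log2 fold change of nicotine-sired over saline-sired sons against the level over the 6 ventral libraries, 1 point per gene tested, with the 617 genes passing in colour (443 protein coding, 174 of other biotypes); Lcn2 lies lowest at -8.54 among the passing genes. Right, the fold changes in sons and in daughters for 432 of the 443 coding genes (11 lie outside the axes), with bars of 1 standard error for named genes. The chaperones marked there lie below 0 in sons and above 0 in daughters. Most of them are among the genes with the smallest p for the difference between the sexes, which favours opposite signs. Unmarked chaperones such as Hspa1a (-0.21) and Hspb1 (-0.12) were negative in daughters. The full lists had medians of 0.148 (ER) and 0.104 (cytosolic) in daughters.

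Chaperones of the ER were lower in nicotine-sired sons. Of the 24 listed genes, all tested, 16 fell and 0 rose, with a list median of -0.54 against 0.01 for all genes. Hspa5, which codes for BiP, the main HSP70 chaperone of the ER, stood at 271, 291 and 273 CPM in nicotine-sired sons and at 477, 535 and 618 CPM in saline-sired sons. Every nicotine-sired son was below every saline-sired son, a log2 fold change of -0.96 ± 0.09 (SE) with an adjusted p of 7.09e-05. Sdf2l1, a partner of BiP, had 8.59, 12.2 and 10.6 CPM in nicotine-sired and 24.5, 25.6 and 29.4 CPM in saline-sired sons, 2.53-fold higher in the latter. The ER form of HSP90, Hsp90b1, had 277, 281 and 279 against 410, 425 and 470 CPM. The spread within each group was small beside this gap (log2 fold change -0.64 ± 0.07, adjusted p 0.000172).

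The disulfide isomerases fell together. Pdia6 was measured at 93.9, 108 and 99.7 CPM in nicotine-sired sons and at 171, 175 and 197 CPM in saline-sired sons (log2 fold change -0.85 ± 0.07, adjusted p 6.41e-05). Pdia4 and Pdia3 fell by 0.83 and 0.56 on the log2 scale. Calreticulin (Calr), a lectin chaperone that buffers calcium, had 335, 399 and 395 against 552, 589 and 616 CPM. Calnexin (Canx), its membrane-bound relative, did not pass: it had 328, 328 and 332 against 359, 368 and 380 CPM (adjusted p 0.226), although its promoter also holds the ER stress element. Xbp1, which codes for a transcription factor of the unfolded protein response, fell by 0.56, and Manf, a secreted ER stress protein, by 0.79.

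Atf4 and Ddit3, genes of another arm of the response, did not pass. Atf4 had 111, 149 and 127 CPM in nicotine-sired and 128, 133 and 141 CPM in saline-sired sons (log2 fold change -0.06 ± 0.10), and Ddit3, the ATF4 target also called CHOP, differed by -0.27 ± 0.13 (adjusted p 0.331). These 2 genes were picked for naming after their values had been seen. Components of ER-associated degradation passed less firmly. Herpud1 fell by 0.42, Syvn1 by 0.34 and Derl3 by 1.67, but without 1 of the libraries of the sons their adjusted p reached 0.079, 0.106 and 0.0661. With the antisense covariate the median of the ER list was -0.57, and 0 of 24 genes passed (11 at an unadjusted p under 0.05). The standard errors grew: that of Hspa5 went from 0.09 to 0.27 while its log2 fold change went from -0.96 to -0.94. Other genes of the list shrank: Xbp1 went from -0.56 to -0.25, Herpud1 from -0.42 to -0.08 and Derl3 from -1.67 to -0.61.

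Cytosolic chaperones were lower as well. Of 22 listed genes, 18 fell and 0 rose (median -0.51), and in 21 of them every nicotine-sired son was below every saline-sired son. Over all 19224 genes tested, 2090 showed that separation. Hspa8, the constitutive HSP70 and one of the most abundant transcripts of the list, had 1740, 1795 and 1761 CPM against 2431, 2417 and 2513 CPM. This is a log2 fold change of -0.47 ± 0.06 with an adjusted p of 0.000801. The stress-inducible HSP70 gene Hspa1b had 29.8, 29.8 and 32.9 against 77.0, 75.2 and 101 CPM, 2.74-fold higher in saline-sired sons. Its copy Hspa1a is nearly identical, so reads may be split between them, but both fell (Hspa1a by 1.32 on the log2 scale).

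Small heat shock proteins fell with the large ones. Hspb1, an actin-protecting small chaperone, had 5.43, 8.08 and 6.61 against 15, 15.6 and 22.8 CPM. Cryab, alpha B-crystallin, had 64.7, 88.4 and 70.4 against 127, 120 and 139 CPM. Both groups were again apart, with log2 fold changes of -1.40 ± 0.19 and -0.79 ± 0.13. The cofactors of HSP70 and HSP90 changed with smaller errors: Stip1, which links the 2 machines, had 154, 165 and 148 against 244, 249 and 259 CPM (-0.69 ± 0.06, adjusted p 7.09e-05). Hsph1, a nucleotide exchange factor, fell by 0.71, Chordc1 by 0.67, Ahsa1, the activator of HSP90, by 0.55 and Dnajb1 by 0.59. Dnaja4, which was not on the list, had 56.3, 54.4 and 55.8 against 78.2, 80.8 and 92.0 CPM.

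Hsf1, the gene of the heat shock factor itself, had 19.6, 22.6 and 20.7 CPM in nicotine-sired and 29.4, 28.9 and 28.5 CPM in saline-sired sons (-0.47 ± 0.07, adjusted p 0.00308). Fkbp4, the HSP90 partner that carries the glucocorticoid receptor to the nucleus, fell by 0.59. The HSP90 genes themselves fell by 0.36 (Hsp90aa1) and 0.34 (Hsp90ab1), with adjusted p of up to 0.0876 and 0.0783 when 1 son was left out; in both cases the call was lost without saline-sired son C. Likewise Hspd1, Hspe1 and Bag3 passed with all libraries and had an adjusted p of up to 0.121, 0.0871 and 0.0834 with 1 son left out. With the antisense covariate the list median was -0.43, and 0 of 22 genes passed (8 at an unadjusted p under 0.05). Stip1 went from -0.69 to -0.56 under it, Cryab from -0.79 to -0.34 and Dnajb1 from -0.59 to -0.03.

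**Figure D2:**
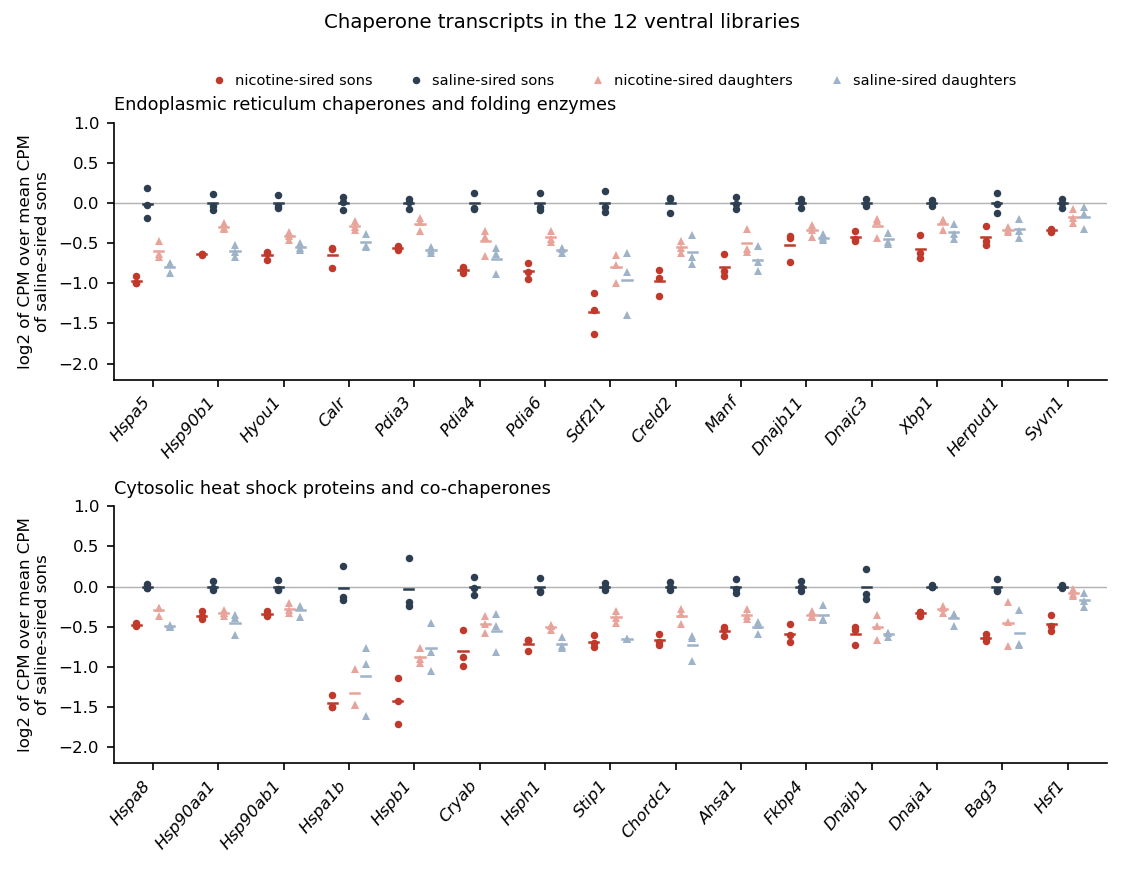
Levels of 30 chaperone-related transcripts in the 12 ventral libraries, as log2 of CPM over the mean CPM of saline-sired sons (points: libraries; lines: means of the log2 values). Saline-sired sons lie at 0 and above most other libraries, and the daughters of both paternal treatments lie between the saline-sired sons and the nicotine-sired sons or beside the latter.

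Genes known to be induced by glucocorticoids were lower in nicotine-sired sons. Of 23 tested, 12 fell and 0 rose, with a median of -0.54. Tsc22d3, which codes for the glucocorticoid-induced leucine zipper, had 68.6, 82.5 and 89.1 CPM in nicotine-sired and 136, 150 and 153 CPM in saline-sired sons. The groups were apart by a log2 fold change of -0.87 ± 0.09 (adjusted p 0.00011). Sgk1, a kinase induced by corticosteroids and the single gene of this list with a full glucocorticoid response element (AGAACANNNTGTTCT) in its promoter, had 58.6, 43.5 and 56.5 against 110, 102 and 101 CPM. That element stood in 3 of all 32851 promoters of this length (0.00913%). Of the 12312 genes tested that have such a promoter, 1 held it, Sgk1 itself.

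Arrdc2, an arrestin-domain gene, had 7.0, 7.18 and 6.81 against 14.0, 14.8 and 14.0 CPM, a 2.04-fold gap with hardly any spread within the groups. Xdh, xanthine dehydrogenase, was 3.09-fold and Galnt15, a glycosyltransferase of mucin-type sugars, 2.99-fold higher in saline-sired sons. Hif3a fell by 1.14 and the transcription factor Klf15 by 0.64 on the log2 scale. The lipid droplet coat gene Plin4 had 2.57, 2.68 and 3.77 against 25.4, 21.8 and 18.2 CPM, 7.28-fold higher in saline-sired sons. Its error was large (log2 fold change -2.86 ± 0.48), and without any 1 nicotine-sired son its adjusted p rose to at most 0.0552.

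Other members of the list moved less. Fkbp5, a standard glucocorticoid target and inhibitor of the receptor, had 57.2, 46.1 and 64.3 against 77.9, 81.1 and 74.2 CPM without passing (-0.48 ± 0.16, adjusted p 0.159). Ddit4 and Angptl4 passed with all libraries, but their adjusted p reached 0.105 and 0.0871 with 1 son left out. The receptor gene Nr3c1 itself did not pass, at 71.5, 61.1 and 58.6 against 54.4, 52.2 and 55.3 CPM. Among the 9 genes of corticosteroid receptors and the corticotropin-releasing hormone system, Fkbp4 alone passed. Corticosterone was not measured. The median of the glucocorticoid list was -0.84 with the antisense covariate, and 0 of 23 genes passed (11 at an unadjusted p under 0.05).

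Lcn2, lipocalin 2, an iron-binding acute phase protein secreted by reactive astrocytes and endothelium, separated the groups most widely. Saline-sired sons had 19.7, 18.0 and 9.77 CPM, from 370 to 852 counts a library. Nicotine-sired sons had 1 to 3 counts a library. The ratio of saline-sired to nicotine-sired levels was 408, with a counting interval of 175 to 1260 at 95% that leaves out the spread between animals. The daughters' libraries, at 0 to 0.292 CPM, were all near the nicotine-sired sons, so the high level was seen in saline-sired sons only, among the ventral libraries.

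Further genes of the inflammation list fell from low levels. Of 16 genes tested, 6 fell and 0 rose, and in 11 every nicotine-sired son was below every saline-sired son. The latter held for 2090 of all 19224 genes tested. S100a8 and S100a9, the subunits of calprotectin of neutrophils, had 3 and 7 counts in all 3 nicotine-sired sons against 36 and 78 in the saline-sired sons. The ratios were 12.2 (counting interval 3.85 to 61.9) and 11.3 (5.24 to 29.1), and S100a8 missed the threshold when single sons were left out (adjusted p up to 0.0881). Lrg1, an acute phase glycoprotein of vessels, had 0.391, 0.850 and 0.512 against 2.1, 2.1 and 2.14 CPM. Nfkbia, the inhibitor of NF-kB and also on the glucocorticoid list, fell by 0.54. The other 10 genes tested did not pass, Tnf, Ccl2, Sele and Steap4 were too low to be tested, and 0 of the 11 interferon-response genes did (2 at an unadjusted p under 0.05, 0 in DESeq2).

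Cold-responsive RNA-binding proteins rose. Cirbp had 39.4, 49.4 and 45.2 CPM in nicotine-sired and 23.5, 24.5 and 23.3 CPM in saline-sired sons, a log2 fold change of 0.91 ± 0.08 with an adjusted p of 6.58e-05. Rbm3, its X-linked relative, had 65.6, 73.5 and 73.3 against 33.5, 36.8 and 30.4 CPM. Both genes were higher in all 3 nicotine-sired sons than in any saline-sired son. Of the 24 genes of the list, 5 rose and 1 fell, and the list median was 0.08, so most of its splicing factors did not follow these genes.

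The genes of the list that rose included Hnrnpdl and Srsf5, which code for RNA-binding proteins known to regulate their own splicing or that of others. Hnrnpdl had 93.5, 102 and 99.7 against 63.9, 65.2 and 52.8 CPM, and Srsf5 had 72.7, 78.2 and 76.8 against 45.0, 49.3 and 43.8 CPM. Tra2a, the gene that fell (by 0.41), had an adjusted p of up to 0.0849 with 1 saline-sired son left out. None of the 24 genes passed with the antisense covariate (6 at an unadjusted p under 0.05).

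Among 19 circadian clock genes, 1 rose and 2 fell. Dbp, an output gene of the clock, had 49.6, 77.3 and 61.1 against 34.2, 36.9 and 38.9 CPM (0.77 ± 0.14, adjusted p 0.00795). Nfil3, which codes for a repressor that binds the same DNA element, had 8.95, 10.1 and 9.48 against 13.3, 13.5 and 13.6 CPM. Arntl, which codes for BMAL1, fell by 0.33 with an adjusted p of up to 0.113 when single sons were left out. Dbp overlaps exons of a coding gene on the opposite strand over 539 bases. The hour of tissue collection is not given in the sources used here.

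Genes of the blood vessels moved in both directions. In the list of blood-brain barrier transport, 5 of 14 rose and 3 fell. Tfrc, the transferrin receptor that carries iron into the brain, had 77.9, 64.9 and 76.9 CPM in nicotine-sired and 33.8, 33.9 and 29.2 CPM in saline-sired sons. At 2.27-fold it was the gene of the list with the largest rise (log2 fold change 1.18 ± 0.10, adjusted p 3.93e-05). The organic anion transporter Slco1a4 had 34.1, 32.3 and 36.6 against 18.7, 17.2 and 19.8 CPM, and Itm2a, a membrane protein of brain endothelium, 37.1, 43.0 and 44.3 against 21.5, 23.0 and 21.6 CPM.

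The lactate carrier Slc16a1 also rose (0.56 ± 0.09), and Mfsd2a, the carrier of docosahexaenoic acid that keeps the barrier tight, fell. It had 19.4, 22.8 and 27 against 40.0, 40.4 and 36.7 CPM. The glucose carrier Slc2a1 fell by 0.50, with an adjusted p of 0.0582 without saline-sired son B. The calls of Slc22a8, which rose, and Abcc4, which fell, were lost when single libraries were left out (adjusted p up to 0.128 and 0.145). The iron exporter Slc40a1 rose with Tfrc, at 9.27, 9.41 and 9.12 against 5.45, 5.55 and 4.8 CPM.

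Endothelial receptors rose in part. Of 14 genes of this list, 3 rose and 0 fell. Tek, the angiopoietin receptor, had 13.0, 12.3 and 12.1 against 8.96, 7.17 and 8.53 CPM, and Kdr, the main receptor of VEGF, rose by 0.58. Tie1 passed with all libraries and had an adjusted p of up to 0.0644 without single sons. Cav1, a caveolar protein that belonged to no list, rose by 0.74. Ly6a and Ly6c1, surface proteins of brain endothelium that are relatives of the lynx proteins, fell by 0.88 and 0.63.

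All 14 mural cell genes (pericytes and vascular smooth muscle) had positive log2 fold changes (median 0.51), and 5 passed. Gkn3, a marker of arterial endothelium placed on this list, had 2.18, 1.96 and 1.95 against 0.185, 0.297 and 0.449 CPM, 6.56-fold higher in nicotine-sired sons (adjusted p 7.43e-05). Myh11, smooth muscle myosin, had 8.66, 8.27 and 11.1 against 5.08, 4.59 and 5.28 CPM. Myh11 and Notch3 had adjusted p of up to 0.0535 and 0.0569 with 1 son left out, and the calls of Mcam and Acta2 were also lost (up to 0.110 and 0.135). The summed level of the 14 genes was 226.1 to 271.8 CPM in nicotine-sired and 193.6 to 200.8 CPM in saline-sired sons. More vessel RNA in the dissected tissue and more RNA per vessel cell cannot be told apart in bulk tissue. Of 6 hemoglobin and blood cell genes, 2 rose (Hba-a1 and Hba-a2, near-identical copies whose reads may be split between them) and all were positive; both calls were lost without single sons (adjusted p up to 0.132 and 0.112). Their list had a summed level of 440.9 to 524 against 335.4 to 401 CPM, and the part of blood content in the vessel results was not tested. After adding the antisense ratio, 0 of the 42 genes of the 3 vessel lists passed (10 at an unadjusted p under 0.05).

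Some glial markers passed. Opalin, a membrane protein of mature oligodendrocytes, had 12.1, 13.2 and 12.3 against 6.93, 5.89 and 6.02 CPM (1.0 ± 0.10, adjusted p 0.000127), while the median of the 18 myelin genes was -0.02. Hapln2, a matrix protein at the nodes of Ranvier, fell by 0.71, and Aspa rose by 0.71, but their adjusted p reached 0.0652 and 0.101 when single sons were left out. Of 11 genes of oligodendrocyte precursors 0 passed in edgeR and 1 in DESeq2, with 6 at an unadjusted p under 0.05.

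Of 14 astrocyte markers, 3 rose and 1 fell (28.6%, against 3.21% of all genes), and 12 were positive. Aqp4, the water channel of astrocyte endfeet, had 123, 133 and 136 against 93.1, 95.5 and 95.0 CPM. Gjb6, connexin 30, fell by 0.64, at 39.9, 52.6 and 49.5 against 70.8, 70.5 and 79.8 CPM. Ednrb, the endothelin receptor of astrocytes and vessels, rose by 0.64. Among 14 microglia markers (15 gene IDs, since Itgam has 2), 2 rose and 11 IDs were positive. P2ry12, the receptor by which resting microglia sense ATP and ADP, rose (27, 31.6 and 40.6 against 20.1, 18.8 and 18.5 CPM). Cx3cr1 also passed, with an adjusted p of up to 0.166 when 1 library was left out.

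Nes and Sox2, genes of neural stem cells that astrocytes and vessels also express, rose by 0.65 and 0.48. They were 2 of 13 genes of neurogenesis and proliferation, and the others did not pass. Sox21, a relative of Sox2 outside the list, had 10.2, 12.8 and 11.5 against 5.43, 4.61 and 6.15 CPM. Once the antisense ratio was added, 0 of the 71 gene IDs of the glial and neurogenesis lists passed (6 at an unadjusted p under 0.05).

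**Figure D3:**
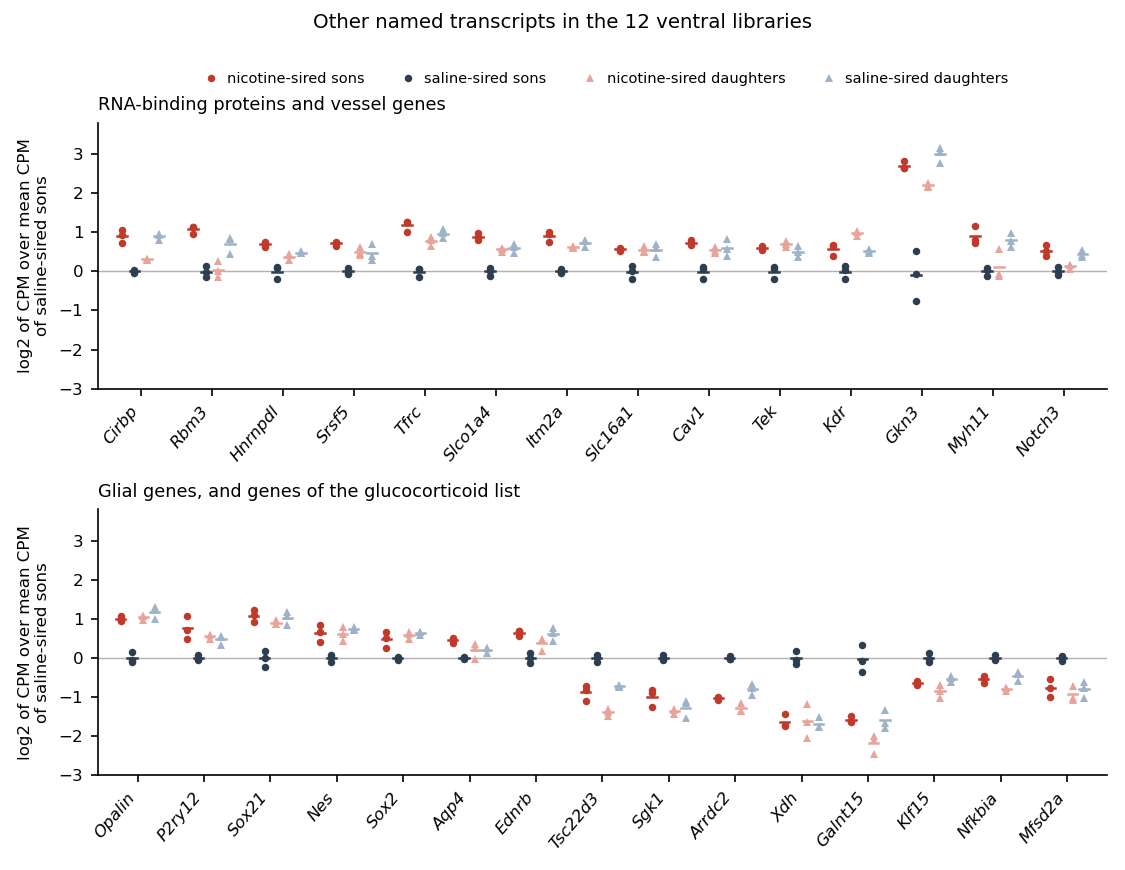
Levels of 29 further transcripts in the 12 ventral libraries, as log2 of CPM over the mean CPM of saline-sired sons (points: libraries; lines: means of the log2 values). Upper panel, genes that rose in nicotine-sired sons; Cirbp and Rbm3 are lower in nicotine-sired than in saline-sired daughters. Lower panel, glial genes that rose and, from Tsc22d3 to the right, genes that fell; most daughters lie on the side of the nicotine-sired sons.

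Neuronal genes showed few calls. Of 11 nicotinic receptor subunits tested, 0 passed in edgeR and in DESeq2, and 0 had an unadjusted p under 0.05. With the antisense covariate their median went from 0.0793 to -0.996, and 0 passed (3 at an unadjusted p under 0.05). The subunits of the main heteromeric receptor, Chrna4 and Chrnb2, had 31.7, 35.5 and 20.5 against 29.8, 26.3 and 31.2 CPM and 63.0, 55.6 and 54.6 against 52.9 to 56.6 CPM. Chrna7, the subunit of the homomeric receptor, had 17.4, 8.90 and 14.2 against 12.7, 12.5 and 12.6 CPM. The log2 fold changes were 0.01 ± 0.20, 0.08 ± 0.07 and 0.10 ± 0.23, so the nicotine-sired animals varied more among themselves than the groups differed. Of the muscarinic receptors and genes of acetylcholine turnover, 0 of 8 passed with either tool, and 2 had an unadjusted p under 0.05.

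The same count of 0 held in edgeR for 15 AMPA, NMDA and kainate subunits, 7 metabotropic glutamate receptors, 14 GABA receptor subunits, 10 dopamine and adrenergic receptors and 12 serotonin receptors. It also held for 13 opioid and cannabinoid genes, 7 neurotrophin genes, 26 potassium channels, 23 sodium and calcium channels, 17 interneuron genes and 14 pyramidal cell markers. Of these 157 genes, 15 had an unadjusted p under 0.05, and DESeq2 passed 1, an interneuron gene. With the antisense covariate 26 of the 157 had an unadjusted p under 0.05, and 0 passed. The absence of a call does not show equal levels: the typical biological coefficient of variation was 0.118, and 3 animals a group limit what can be detected.

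Immediate early genes, which rise with recent neuronal activity, were uneven. Fos had 18.4, 35.2 and 18.3 CPM in nicotine-sired and 9.125, 9.998 and 12.67 CPM in saline-sired sons, and Npas4 had 7.36, 18.2 and 9.94 against 4.04, 4.75 and 4.09 CPM. As in 2213 of the 19224 genes tested, every nicotine-sired son was above every saline-sired son in both genes, with son B highest. Neither passed (adjusted p 0.191 and 0.165). Over the 18 genes, 15 were positive and the median was 0.38. In edgeR 0 passed, with 5 at an unadjusted p under 0.05, and 1 passed in DESeq2. With the antisense covariate the list median was 1.61, and 0 of 18 genes passed (12 at an unadjusted p under 0.05).

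Other lists gave isolated calls or none. Of the 13 mitochondrially encoded transcripts all were positive and mt-Nd6, the single one encoded on the light strand, passed; 8 had an unadjusted p under 0.05, 2 passed in DESeq2 and up to 7 when 1 library was left out. Of 28 enzymes of DNA methylation and histone modification 1 passed, Hdac3, at 54.0, 57.8 and 54.0 against 48.0, 45.2 and 44.2 CPM; its adjusted p reached 0.121 with 1 library left out. None passed among 15 choroid plexus genes, 10 fibroblast genes, 23 imprinted genes, 19 collagens and laminins, 7 metallothionein and zinc genes and 16 markers of neighbouring brain areas, which together held 10 genes at an unadjusted p under 0.05 and 2 passing in DESeq2. All 12 genes of motile cilia were negative (median -0.69) without passing (4 at an unadjusted p under 0.05, 0 in DESeq2), at a summed level of 15.4 to 23.9 against 25.2 to 33.2 CPM.

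Outside the lists, Tmem252, a small membrane protein gene, had 0.612, 0.425 and 0.640 against 3.07, 4.20 and 3.12 CPM, 6.21-fold higher in saline-sired sons. Tppp3, which codes for a tubulin-binding protein, had 13.7, 17.2 and 13.8 against 28.9, 28.6 and 28.7 CPM. The collagen prolyl hydroxylase gene P4ha1 and the procollagen protease gene Adamts2 fell by 0.59 and 0.77. Slc16a4, a relative of the lactate carriers, rose 4.12-fold and Pla2g4e, a phospholipase A2, 3.02-fold, the latter from 0.993, 1.07 and 1.29 CPM to 3.64, 4.0 and 2.46 CPM. The taurine carrier Slc6a6 rose by 0.44.

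Placed beside the daughters, most of the coding genes set the saline-sired sons apart rather than the nicotine-sired sons. Over all genes tested, the 3 saline-sired sons lay wholly above or wholly below the other 9 ventral libraries for 5.05%, and the 3 nicotine-sired sons for 3.25%. Of the 268 genes that fell, the saline-sired sons stood above all 9 other libraries in 185 and the nicotine-sired sons stood below all 9 others in 73. Of the 201 coding genes that rose, the corresponding counts were 118 and 64. Genes in which both groups stood apart are counted on both sides, 32 of the 268 and 14 of the 201. In the cytosolic chaperone list the saline-sired sons stood apart in 21 of 22 genes, and in the glucocorticoid list in 14 of 23. The nicotine-sired sons did so in 3 and 0, and those 3 genes are among the 21. For Hspa5 the 6 daughters ranged from 296 to 390 CPM, between the 2 groups of sons. For Xdh the daughters had 5.17 to 9.34 CPM and the nicotine-sired sons 6.31 to 7.84 CPM, while the saline-sired sons had 19.1 to 23.9 CPM. The noncoding genes opposite coding exons gave the reverse: the nicotine-sired sons stood apart in 89 of 115 and the saline-sired sons in 7, with 2 counted in both.

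The log2 fold change with the father's treatment differed between sons and daughters for 205 genes (1.07%) in a test of the difference itself, 98 with the higher log2 fold change in sons (0.51%) and 107 with the lower (0.557%). Of these, 192 had opposite signs in the sexes, which choosing genes by the difference itself favours, and 151 also passed in sons. Daughters taken alone gave 6 genes. The daughters of each group also share a title number, which differs from that of the sons. A father, litter or cage per group therefore cannot be told apart from sex in this contrast. The list of ER chaperones held 15 of the 205 genes and that of cytosolic chaperones 14, all lower in sons than in daughters. Hspa5 differed by -1.16 ± 0.13 between the sexes (adjusted p 0.000359), since nicotine-sired daughters had 340, 390 and 349 CPM against 296, 324 and 320 CPM in saline-sired daughters. Cirbp fell in daughters (adjusted p 0.0183), to 29.6, 29.7 and 28.8 CPM from 41.3, 45.3 and 45.9 CPM, so the difference between the sexes was 1.5 ± 0.11 with an adjusted p of 4.33e-05. Rbm3 (1.74 ± 0.17) and Dbp (1.45 ± 0.20) also differed between the sexes, but did not pass in daughters (adjusted p 0.0672 and 0.108).

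The glucocorticoid targets did not share this pattern throughout. Tsc22d3 had log2 fold changes of -0.87 in sons and -0.67 in daughters, and the difference of -0.20 ± 0.12 did not pass (adjusted p 0.502). For Hif3a the values were -1.14 and -1.11. Sgk1 did differ (-0.89 ± 0.17, adjusted p 0.022), with 38.9, 42.6 and 41.2 against 36.0, 48.3 and 46.7 CPM in daughters. The number of genes that differed between the sexes was 103 without nicotine-sired daughters B and C, the libraries rich in Ttr, an exclusion chosen after their values were seen. Leaving out 1 library at a time gave 84 without saline-sired son A, 88 without nicotine-sired daughter B and 463 without nicotine-sired son A.

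In the dorsal hippocampus of the same sons most of the changes had the same sign. Of the 267 genes that fell ventrally and were tested dorsally, 265 had a negative log2 fold change there as well, and 124 passed. Of the 340 genes that rose ventrally and were tested dorsally, 324 were positive and 42 passed, with a median log2 fold change of 0.47 dorsally against 1.09 ventrally over all 349. Over all 19130 genes tested dorsally, 341 passed in sons. How often the signs matched over all genes is not given here. Hspa5 had 284, 315 and 284 CPM in the dorsal libraries of nicotine-sired and 604, 545 and 613 CPM in those of saline-sired sons. Cirbp had 38.3, 43.2 and 43.5 against 20.5, 21 and 21.5 CPM, and Lcn2 had 0.0985, 0.149 and 0.155 against 29.4, 22.7 and 8.35 CPM. Since both regions come from the same 6 animals, the dorsal libraries repeat the measurement in those animals and add no animal. A test of the difference between the regions passed 0 of 19849 genes (0%) in edgeR, with 1787 at an unadjusted p under 0.05, and 1 gene in DESeq2. Aqp4 and Sox9 were among the 5 own-symbol genes with the smallest p in that test (differences of 0.43 ± 0.09 and 0.54 ± 0.10, adjusted p 0.536): Aqp4 had 104, 135 and 116 against 115, 116 and 114 CPM dorsally.

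In the dorsal libraries of the sons the antisense ratio did not follow the father's treatment. It was 0.43% and 0.456% in nicotine-sired sons A and B but 0.222% in C, and 0.224% and 0.193% in saline-sired sons A and C but 0.447% in B. Wdr38, which lies opposite a coding gene over 821 exonic bases, had 4.28, 4.55 and 6.28 against 1.27, 1.57 and 0.475 CPM ventrally. Dorsally it had 3.99, 5.57 and 0.903 CPM in nicotine-sired and 1.53, 4.49 and 0.694 CPM in saline-sired sons, high in the 3 libraries with a high ratio, 1 of them from a saline-sired son. Tmem150b, Phykpl and mt-Nd6 were also highest in these 3 dorsal libraries; mt-Nd6, for example, had 93.5, 121 and 40.8 against 33.3, 84.3 and 43.9 CPM. Hspa5, Cirbp, Tfrc and Tsc22d3, given as examples, separated the sons by the father's treatment in both regions. Among saline-sired sons only dorsal library B (0.447%) had a high ratio. Among nicotine-sired sons only dorsal library C (0.222%) had a low one. Other genes named above overlapped dorsally: Hsf1 had 23.8, 23.5 and 24.7 CPM in nicotine-sired and 29.6, 28.2 and 24.3 CPM in saline-sired sons. Sox2 and Ednrb overlapped there as well. How many genes keep the separation in the dorsal libraries was not counted, and whether they follow the ratio was not tested.

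**Figure D4:**
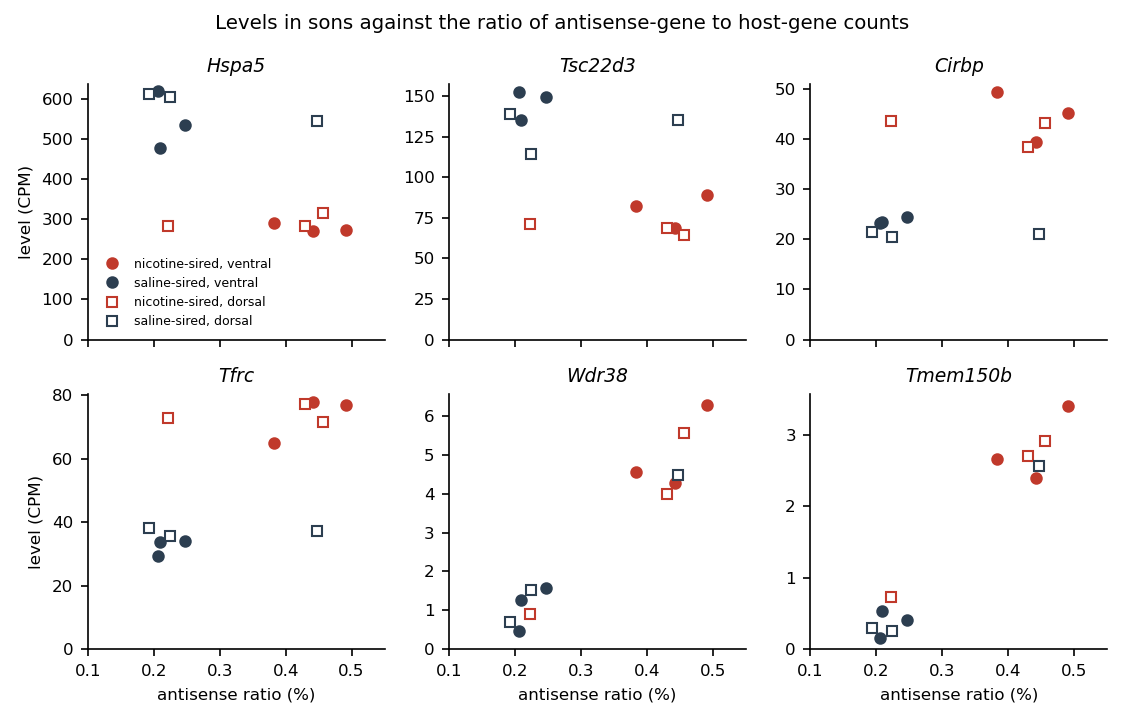
Levels (CPM) of 6 genes in the ventral (filled circles) and dorsal (open squares) libraries of the 6 sons against each library's antisense ratio in percent. Of these 6 examples, Hspa5, Tsc22d3, Cirbp and Tfrc split by colour, that is by the father's treatment. Wdr38 and Tmem150b are high in every library with a ratio of at least 0.383%, including dorsal saline-sired son B. That library and dorsal nicotine-sired son C are the only ones whose ratio differs from the level of their group's ventral libraries.

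Many of the noncoding genes that rose lay opposite coding exons. Of 148 noncoding genes that rose, 108 (73%) overlapped exons of a coding gene on the opposite strand over at least 100 bases, against 19.2% of the noncoding genes tested. Among coding genes the shares were 24.9% of those that rose, 9.92% of those that fell and 12.5% of those tested. With the ratio as a covariate, the median log2 fold change of the 115 noncoding genes opposite coding exons went from 2.79 to 0.68, that of the coding genes that rose from 0.59 to 0.44 and that of the coding genes that fell from -0.47 to -0.47, with standard errors of typically 1.2, 0.33 and 0.26. The ratio is itself built from counts of noncoding genes opposite coding exons. The drop in the 115 genes was therefore largely built in and is no independent contrast with the coding genes. Only 1 gene passed under this covariate, which in the ventral sons is nearly the same variable as the father's treatment. The library kit marks strand, while no source names the strand setting used in counting. Besides Dbp and Wdr38, genes named above that overlap opposite coding exons over at least 100 bases include Manf (146), Hspd1 and Hspe1 (112 each), Hspa1a (564), Cryab (252), Dnaja4 (1581), Chrnb2 (1365), Tmem150b (1054) and Phykpl (809).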

How the data were processed

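Poly(A) RNA of 24 hippocampal samples (12 ventral) was sequenced as 150 bp single-end reads, per the labels' protocols. The deposited table was taken to hold raw counts per Ensembl gene, and its last column was converted to whole numbers on reading. TopHat2 2.1.0, Cufflinks and Cuffdiff 2.2.1.3 with mm10 (GRCm38) are named in the submitters' processing notes. No source used here names the counting tool or its strand setting. Of 51912 gene IDs, 51719 matched GENCODE M21, which gave names and positions. All 24 columns matched a label.

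The main test was edgeR 4.0.16 (R 4.3.3): quasi-likelihood F test with robust dispersion, TMM scaling, filterByExpr, 1 mean for each of 4 ventral groups of 3 libraries, two-sided, Benjamini-Hochberg over all genes tested, threshold 0.05. The difference between sexes was a contrast in this fit, and that between regions a contrast over 24 libraries with the animal as a block. CPM are TMM-scaled, so genes compare between libraries and not, without length, with each other. Errors are standard errors from the fit. Alternatives were RLE factors, no filter, a non-robust fit, DESeq2 1.42.0, the spread of 24 libraries, a replicate block, leaving out each library, covariates (antisense ratio, choroid level) and smaller sets of libraries or genes. The test was checked on simulated counts.

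The gene lists and members were chosen with earlier results of these data known, and some lists share genes (Lcn2, Nfkbia, Fkbp4). The text names, among own-symbol genes, the 15 smallest p and 10 largest folds in each direction, passing list members, cholinergic, corticosteroid, clock and cell type members that did not pass, and the smallest p for the differences between sexes (10 a direction) and regions (5). One passing list member is not reported here. Nothing in the labels states that animals of a group came from separate litters, so p-values measure the spread between these animals. Intervals on ratios of counts are 95% and cover counting error only.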

Additional observations from a re-analysis of the deposited data

Results flagged for a closer look

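Sons and daughters differed in the log2 fold change of nicotine-sired over saline-sired offspring in the ventral hippocampus for 205 genes, by the contrast between the sexes in edgeR with an adjusted p under 0.05. Each group of sons or daughters has a title number of its own, so a father, litter or cage per group cannot be told apart from sex here. The genes with the smallest p in each direction are given as the log2 fold change in sons minus that in daughters.

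Higher in sons were the cold-responsive genes Cirbp (1.5) and Rbm3 (1.74), the vessel genes Gkn3 (3.52), Tfrc (1.36), Itm2a (1.03) and Slco1a4 (0.92), and the oligodendrocyte gene Opalin (1.14). Eml2, a microtubule-associated protein, differed by 0.93, Garem2, an adaptor of growth factor receptors, by 1.08, and the zinc finger gene Zfp46 by 0.67. Eml2 had 135, 147 and 150 CPM in nicotine-sired and 103, 106 and 114 CPM in saline-sired sons, and 108, 124 and 112 against 154, 160 and 175 CPM in daughters. The order of the groups was thus opposite in the sexes, without overlap in either.

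Lower in sons were the ER chaperones Hspa5 (-1.16), Pdia4 (-1.04), Pdia6 (-1.01), Hsp90b1 (-0.94), Pdia3 (-0.88) and Hyou1 (-0.78), and the cytosolic chaperones Chordc1 (-1.03), Stip1 (-0.96) and Hsph1 (-0.91). Lcn2 differed by -10.0, a fitted value that rests on 1 to 3 counts per library in nicotine-sired sons and is not a bound.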

How the results depend on the processing

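Leaving out 1 library at a time gave 284 to 671 genes for sons, 84 to 463 for the difference between sexes and 0 to 0 for that between regions. With the antisense covariate 1 gene passed for sons and 1 for the sexes. DESeq2 passed 534 genes for the sexes and 1 for the regions. Without nicotine-sired daughters B and C, chosen after seeing the data, 103 genes differed between the sexes. The other alternatives gave between 442 and 895 genes for sons, against 617; with genes of a mean CPM of at least 1 alone, 228 rose and 224 fell. Letters of the animals do not pair the groups: correlations of the deviations of same-lettered sons were 0.109, 0.098 and -0.192, and of daughters 0.17, 0.244 and -0.0142. The replicate block by letter gave 528 genes for sons and 141 for the sexes, and the fit with no replicate block by animal 0 for the regions.

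Of 112 named genes that passed, 81 kept the call in every refit without 1 library. Without nicotine-sired son A the calls of Plin4, Angptl4, Ddit4, Abcc4, Mcam, Acta2 and Aspa were lost. Without nicotine-sired son B those of Syvn1, Bag3, Plin4, Ddit4, Arntl, S100a8, Slc22a8, Abcc4, Tie1, Mcam, Acta2, Aspa, Sox9, Cx3cr1, Hdac3, Hba-a1, Hba-a2, Lss and Pdzd2 were. Without nicotine-sired son C these were Derl3, Herpud1, Syvn1, Bag3, Hsp90aa1, Hspd1, Plin4, Angptl4, Arntl, S100a8, Slc22a8, Abcc4, Tie1, Notch3, Myh11, Acta2, Hapln2, Sox9, Cx3cr1, Hdac3, Hba-a1, Hba-a2, Lss and Pdzd2. Without saline-sired son A the lost calls were Syvn1, Bag3, Hspd1, Ddit4, Arntl, S100a8, Slc22a8, Abcc4, Mcam, Acta2, Hapln2, Aspa, Cx3cr1, Hba-a1, Hba-a2, Lss and Pdzd2. Without saline-sired son B the lost calls were Derl3, Hspd1, Hspe1, Tra2a, Angptl4, Ddit4, S100a8, Slc2a1, Slc22a8, Abcc4, Tie1, Myh11, Mcam, Acta2, Hapln2, Aspa, Sox9, Cx3cr1, Hdac3, Lss and Pdzd2. Without saline-sired son C the lost calls were Herpud1, Syvn1, Bag3, Hsp90aa1, Hsp90ab1, Hspd1, Hspe1, Tra2a, Angptl4, Ddit4, Arntl, S100a8, Abcc4, Notch3, Acta2, Aspa, Sox9, Cx3cr1, Hdac3, Hba-a1, Hba-a2, Lss and Pdzd2. Among daughters, leaving out nicotine-sired B lost the call of Cx3cr1, nicotine-sired C that of Pdzd2 and leaving out saline-sired B that of Abcc4. Other alternatives, the antisense covariate aside, lost 15 named calls. With the spread of all 24 libraries these were Ddit4, Adamts2, Wdr38, Hba-a1 and Hba-a2, and in the 6 ventral libraries of sons alone Hspd1, Hspe1, Arntl, Mcam, Cx3cr1 and Hdac3. With no filter Slc22a8, Acta2 and Hdac3 were lost, with the replicate block Slc22a8, Abcc4 and Cx3cr1, and without nicotine-sired daughters B and C Cx3cr1, Hdac3 and Lss. Abcc4 was also lost in 4 further settings. The antisense covariate lost all 112 calls, and 24 of the log2 fold changes fell below 50% of their size or turned. Directions turned in Hba-a2, at -0.00309 with that covariate, and otherwise in genes that had not passed. With the antisense covariate Ddit3 was 0.0428, Atf4 0.344, Chrnb2 -0.00201 and Chrna7 -1.11. Without single libraries Atf4 ran from -0.177 to 0.042, Chrna4 from -0.164 to 0.207 and Chrna7 from -0.125 to 0.325. Chrna4 was -0.000786 with no filter and -0.00187 with the replicate block.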

Other observations

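Some gene groups were read beside the comparisons above. Of 11 iron-handling genes, Tfrc and Slc40a1 rose and Lcn2 fell in nicotine-sired sons, while the transferrin and ferritin genes did not pass. Of 15 hypoxia-response genes, 3 fell (Hif3a, Slc2a1 and Ddit4) and 0 rose, and all 3 also stand on the glucocorticoid or blood-brain barrier list. Of 10 genes listed as Ly6-family members or other nicotinic receptor modulators, Ly6a and Ly6c1 fell and the others did not pass. These 2 are the surface proteins of brain endothelium named above, and a role at nicotinic receptors was not tested. Of 19 genes of cholesterol synthesis and uptake 1 rose (Lss), and of 9 dentate granule cell markers 1 fell (Pdzd2), with a list median of -0.42; both calls were lost without single libraries (adjusted p up to 0.121 and 0.146). Of the 15 ventral markers, 0 differed between the groups of sons in edgeR, 1 had an unadjusted p under 0.05 and 1 passed in DESeq2.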
